A study of Mus musculus with 6 samples.

Results

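The 9 genes Ppp1r1b, Adora2a, Rgs9, Gpr6, Rasd2, Foxp1, Bcl11b, Gnal and Rarb are known for high expression in the projection neurons of the striatum. Their rows were taken by symbol, with no measured value in the rule, and they make up 9 of the 35415 genes in the deposited table. All 9 were among the 17255 genes that passed the filter on low counts and were tested. The tissue was labelled lateral septum (LS), a forebrain region linked to feeding and motivation, and came from female wild-type (WT) C57BL/6 mice. The olanzapine group ate chow with olanzapine, an antipsychotic that blocks dopamine and serotonin receptors, and the control group ate the same maintenance chow without it, both for 12 weeks. Each RNA-seq library came from 1 pool of 3 mice, with 3 pools per group, so the spread given throughout is that between pools and the spread between single mice is unknown. The comparison asked whether the level of these genes in LS tissue differed between the 2 diets.

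Striatal projection neurons are the GABAergic output cells of the striatum, which lies beside the septum in the forebrain. Those of the direct pathway carry the D1 dopamine receptor, and those of the indirect pathway carry the D2 dopamine receptor together with an adenosine receptor. The D1 and adenosine receptors act through the olfactory-type G protein to raise cyclic AMP, the D2 receptor lowers it, and protein kinase A passes the signal to the phosphatase regulator DARPP-32, which makes the genes of this chain common markers of the striatum. Bulk RNA-seq measures RNA per library, so fewer cells of a type and less RNA per cell cannot be told apart.

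The counts on genes summed to between 38208153 and 39868872 per pool. Of the 17255 tested genes, 401 (2.32%) had an adjusted p under 0.05 with edgeR's quasi-likelihood test after Benjamini-Hochberg adjustment, and 174 (1.01%) were also changed more than 2-fold in either direction. All 9 marker genes of lateral septum neurons were detected in every pool, and the abundant one, the transcription factor gene Zic1, had TMM-normalized counts of 16964, 13443 and 13080 in control pools 1 to 3, against 7947, 10467 and 12722 in olanzapine pools 1 to 3. Olanzapine pool 1 stood apart, with 25735 normalized counts of Slc17a7, the vesicular glutamate transporter of cortical neurons, against 417 to 2152 in the other 5 pools. A list of 9 hepatocyte genes was higher in every olanzapine pool than in any control pool, with summed values of 219 to 274 CPM (counts scaled to the library size) against 11.7 to 20.9 CPM.

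The striatal genes were plainly detected in tissue labelled LS. Per length, in the authors' FPKM (fragments scaled for transcript length and library depth), Ppp1r1b was the most abundant of the 9 and Foxp1 the least. Ppp1r1b averaged 268 FPKM over the 6 pools, rank 149 among all genes. Gnal (83.3 FPKM) and Rasd2 (80.5 FPKM) followed, and their ranges over the pools overlapped. Adora2a (21.9 FPKM), Rgs9 (18.6 FPKM), Gpr6 (15.1 FPKM), Rarb (10.5 FPKM) and Bcl11b (8.30 FPKM) formed a middle group in which each gene overlapped its neighbours in the order. Foxp1 averaged 2.91 FPKM, with its highest pool (3.48 FPKM) below the lowest pool of every other gene. The summed level of the 9 genes was 357, 567 and 442 FPKM in control pools 1 to 3, against 343, 701 and 643 FPKM in olanzapine pools 1 to 3. The lowest control pool and the lowest olanzapine pool were nearly level. Ppp1r1b alone made up between 43.8% and 56.1% of that sum.

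**Figure D1:**
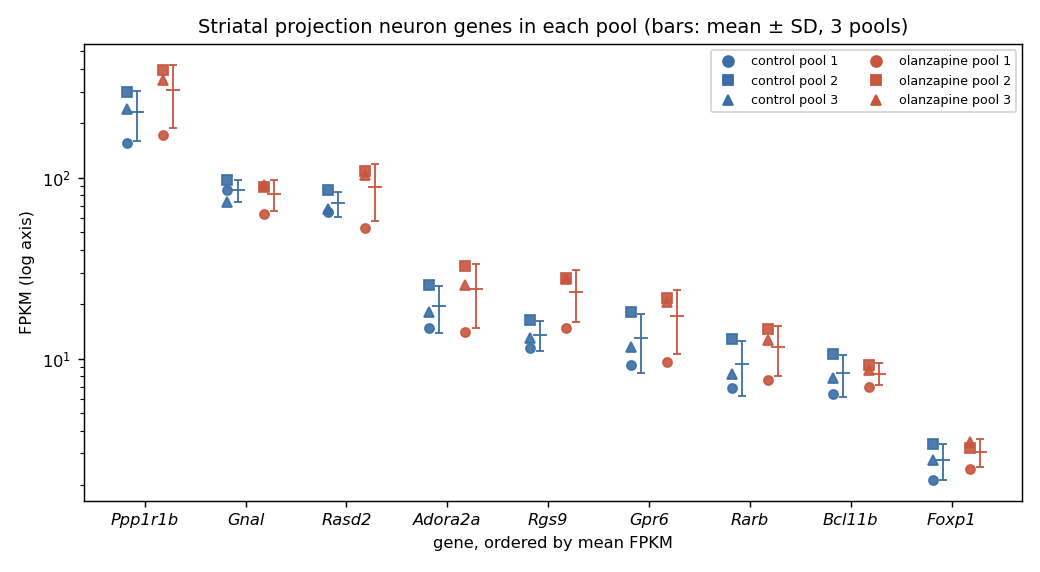
FPKM of the 9 striatal genes on a log axis, with blue symbols for the 3 control pools, red symbols for the 3 olanzapine pools, the same symbol shape for pools of the same number, and bars for the mean ± SD of 3 pools. The groups overlap for each of the 9 genes, and olanzapine pool 1 (red circle) lies lowest in its group every time.

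Within each group, the 9 genes were mostly high in the same pools and low in the same pools. Control pool 2 was the highest control pool for 9 of the 9 genes, and olanzapine pool 1 was the lowest olanzapine pool for 9 of 9. For 8 of the 9 genes the 3 highest pools were control pool 2, olanzapine pool 2 and olanzapine pool 3, a pattern that 3.92% of all tested genes had. The exception was Gnal, whose control pool 1 ranked above olanzapine pool 2. The same pools headed 24 of the 34 other striatal genes that were looked at. The SD over the 6 pools of log2 CPM had a median of 0.44 for the 9 genes, against 0.16 for the 14280 tested genes with a mean count of at least 50, of which the middle 50% lay between 0.11 and 0.27. It was widest for Gpr6 (0.54), Rgs9 (0.53) and Ppp1r1b (0.52) and narrowest for Gnal (0.23), Bcl11b (0.26) and Foxp1 (0.27).

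**Figure D2:**
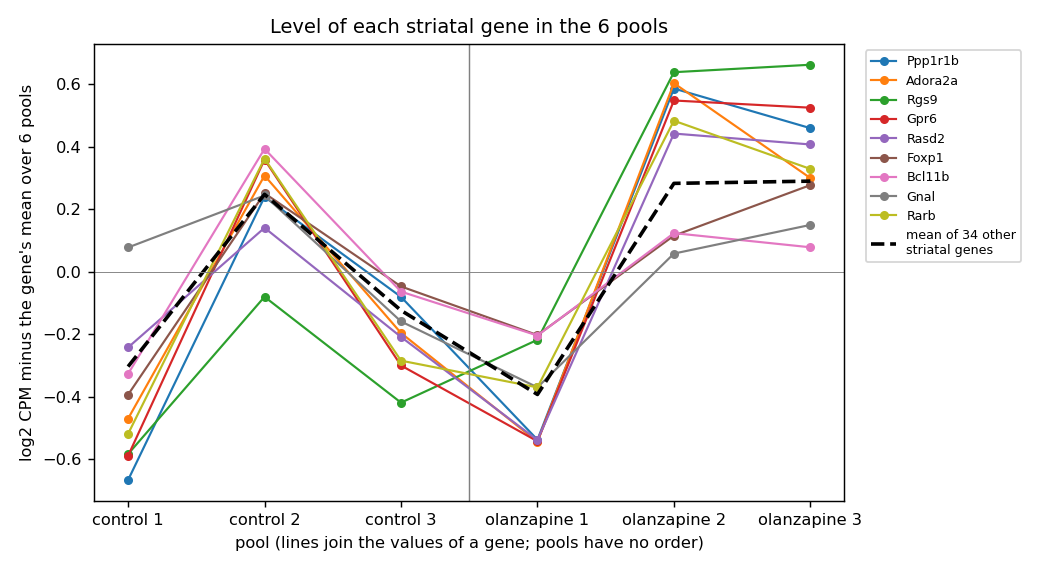
Log2 CPM of each of the 9 striatal genes in each pool, after subtracting the gene's own mean over the 6 pools, with the mean of 34 other striatal genes as a dashed line; the lines join the values of a gene, and the pools have no order. Most lines are high in control pool 2 and in olanzapine pools 2 and 3 and low in the other pools, while Rgs9 (green) is lower than the other genes in control pool 2 and the highest of them in olanzapine pools 2 and 3.

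Against this spread between pools, 0 of the 9 genes passed an adjusted p under 0.05 (background 2.32%), and 0 passed the rule with the 2-fold limit (background 1.01%), with edgeR's quasi-likelihood test. At an unadjusted p under 0.05, 1 of the 9 passed, Rgs9, where 17.6% of all genes did. DESeq2 gave 1 of the 9 an adjusted p under 0.05, again Rgs9, where 5.92% of the 18575 genes with an adjusted p had one, and limma on log2(FPKM + 1) gave 0, where 1.85% of all genes had one. In no gene did the 3 olanzapine pools separate from the 3 control pools, whereas 24.3% of all tested genes had no overlap (13.3% with all olanzapine pools above, 11% with all below). The fitted difference was positive for 7 of the 9 genes, against 50.7% of all genes, and its median was 0.28 on the log2 scale, against 0.0039 over all genes. That median rested on which pools were present, since it was 0.12 without control pool 1, 0.53 without control pool 2, 0.52 without olanzapine pool 1 and 0.10 without olanzapine pool 2. The 9 genes share the same 6 libraries and are not replicates of the diet.

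**Figure D3:**
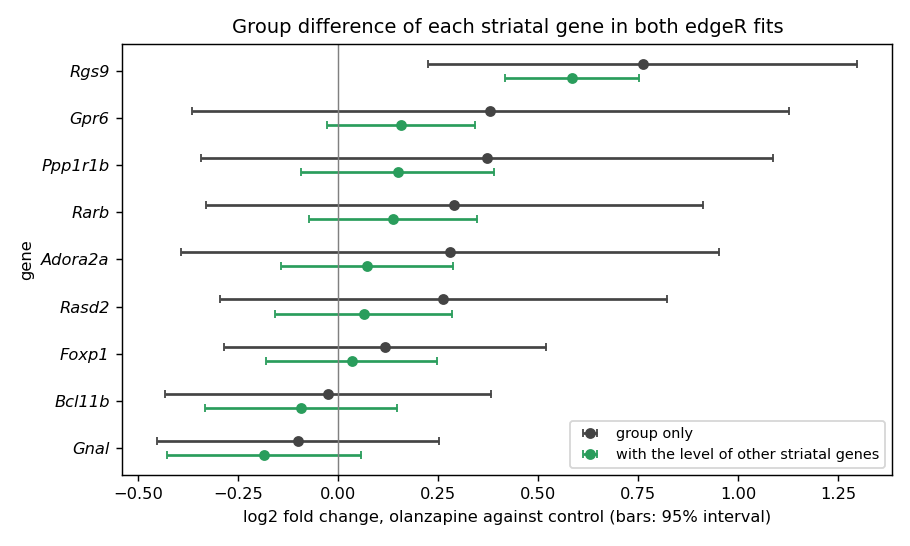
Log2 fold change of each striatal gene, olanzapine against control, with its 95% interval, from the edgeR fit with the group alone (dark) and from the fit that also holds the level of 34 other striatal genes (green). With the group alone the interval of Rgs9 is the only one that leaves out 0, and with the added term all intervals are narrower and Rgs9 is still the only one clear of 0.

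Adora2a encodes an adenosine receptor, which marks indirect-pathway neurons and opposes D2 dopamine signalling. It spans 17.9 kb of chromosome 10 on the plus strand (chr10:75316877-75334784, GRCm38). Normalized counts were 1734, 2974 and 2097 in control pools 1 to 3, against 1647, 3652 and 2958 in olanzapine pools 1 to 3. Both the lowest and the highest value belonged to the olanzapine group, and all 3 control pools lay between them. The group means were 2268 ± 638 and 2752 ± 1018 (SD, n = 3 pools each), and the log2 difference was 0.28 with a standard error (SE) of 0.29 and a 95% interval from -0.39 to 0.95 (edgeR's quasi-likelihood test, adjusted p = 0.671). The difference was 0.020 without olanzapine pool 2 and 0.54 without olanzapine pool 1.

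Gpr6 encodes an orphan receptor that raises cyclic AMP without a known classical ligand and is also a gene of the indirect pathway. It is the most compact of the 9, with 2.3 kb on the minus strand of chromosome 10 (chr10:41069977-41072285, GRCm38). Pools 1 to 3 had normalized counts of 662, 1280.4 and 809.9 for the control group, against 684, 1459.8 and 1437 for the olanzapine group. Control pool 1 and olanzapine pool 1 were nearly level at the bottom, and control pool 2 came close to the top olanzapine pools. The difference was 0.38 on the log2 scale (SE 0.32, 95% interval -0.37 to 1.13), with an adjusted p of 0.589 by edgeR's quasi-likelihood test. Leaving out 1 pool moved it to between 0.19 (without control pool 1) and 0.70 (without control pool 2).

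Promoter windows from RefSeq (GRCm38.p6), from 250 bases before to 50 bases after the transcript start, were at hand for 6 of the 9 genes, with 8 windows in all. The window of Gpr6 is shown because it holds the full palindrome TGACGTCA, the cyclic AMP response element, in a gene whose product raises cyclic AMP. The match lies 78 to 71 bases before the start, is marked in capitals, and reads the same on both strands. Of all 32851 mouse promoter windows, 588 (1.79%) held these letters, and 1 of the 8 windows of the striatal genes did. The match is a description of the sequence and not evidence that a factor binds it. The window is chr10:41072241-41072540, minus strand, written 5′ to 3′ along the transcript.
Gpr6: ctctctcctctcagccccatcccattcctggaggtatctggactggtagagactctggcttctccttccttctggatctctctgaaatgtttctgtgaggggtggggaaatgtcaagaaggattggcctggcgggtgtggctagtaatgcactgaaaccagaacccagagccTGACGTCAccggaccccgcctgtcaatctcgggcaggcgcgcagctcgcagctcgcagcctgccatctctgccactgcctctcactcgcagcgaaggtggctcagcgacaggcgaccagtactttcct

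Gnal encodes the alpha subunit of the olfactory-type G protein, which couples D1 dopamine and adenosine receptors to adenylyl cyclase in these neurons. The gene spans 138.6 kb on chromosome 18. Its normalized counts, 21160.2, 23747 and 17957 in the control pools, against 15513, 20875 and 22247 in the olanzapine pools, did not put control pool 1 lowest among the control pools, unlike those of the other 8 genes. The groups overlapped, with the highest value in control pool 2 and the lowest in olanzapine pool 1. Means were 20955 ± 2901 and 19545 ± 3558 (SD, n = 3), and the log2 difference was -0.10 (SE 0.15, 95% interval -0.45 to 0.25, edgeR adjusted p = 0.785). Without control pool 2 it was 0.0038, and without olanzapine pool 1 it was 0.040. Gnal overlaps 2 other counted genes, Chmp1b on its own strand and Mppe1 on the opposite strand, with 7042 and 2846 counts summed over the 6 pools, and the strand setting of the counting is not given in the sources used here.

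Rgs9 encodes a regulator of G protein signalling whose long splice form is concentrated in the striatum, where it shortens signalling from D2-type receptors. It covers 72.8 kb of chromosome 11 on the minus strand (chr11:109225355-109298129, GRCm38), with no overlapping annotated gene. Normalized counts were 3944, 5592 and 4420 in control pools 1 to 3, against 5082, 9206 and 9359 in olanzapine pools 1 to 3. Olanzapine pools 2 and 3 lay well above all control pools, while olanzapine pool 1 lay below control pool 2. The control pools averaged 4652 ± 848 and the olanzapine pools 7882 ± 2426 (SD, n = 3), a ratio of 1.69. The log2 difference was 0.76 (SE 0.23, 95% interval 0.22 to 1.30), and its p of 0.0114 became an adjusted p of 0.150 in edgeR's quasi-likelihood test. Leaving out olanzapine pool 1 gave 1.00 with an adjusted p of 0.00668, and leaving out each of the other pools kept the adjusted p above 0.05. DESeq2 gave 0.76 with an adjusted p of 0.00806.

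Rgs9 was also compared with the rest of the striatal genes in each pool. The mean log2 CPM of 34 other striatal genes, none of them among the 9, was 5.90, 6.45 and 6.08 in control pools 1 to 3, against 5.81, 6.48 and 6.49 in olanzapine pools 1 to 3. Rgs9 exceeded that mean by 0.76, 0.72 and 0.75 log2 units in the control pools, and by 1.22, 1.40 and 1.42 in the olanzapine pools. The control pools were within 0.05 log2 units of each other on this scale, and each olanzapine pool was higher than each of them. The group means of this difference were 0.74 ± 0.024 and 1.34 ± 0.11 (SD, n = 3), apart by 0.60. Of all tested genes, 7.08% had groups that did not overlap on this scale, 3.2% with all olanzapine pools above, so that 1 of the 9 is a count near that background. The other 8 genes overlapped, and their group differences relative to the 34 genes ran from -0.23 (Gnal) to 0.23 (Gpr6). Some of the 34 genes also did not overlap on this scale, though the mean includes them. Kcnh4, Rasgrp2, Hpca and Chrm4 were among those with each olanzapine pool above each control pool. Ebf1, Foxp2 and Sp9 were among those with each olanzapine pool below each control pool. These genes were picked after their values were seen.

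With the mean of the 34 genes as a covariate, a fit chosen after seeing the data, edgeR's quasi-likelihood test gave Rgs9 a log2 difference of 0.58 (SE 0.072, 95% interval 0.42 to 0.75) and an adjusted p of 0.00879. The same fit gave an adjusted p under 0.05 to 1 of the 9 genes, against 425 (2.46%) of all genes, of which 318 (1.84%) were higher. When each pool was left out in turn from this fit, the value of Rgs9 ran from 0.52 to 0.69 and passed in 4 of the 6 fits. It did not pass without olanzapine pool 1 (adjusted p = 0.106, edgeR) or without olanzapine pool 3, and the adjusted p values of the 6 fits ran from 0.0207 to 0.106. Among the 36 pairs that the 9 genes form, the log2 ratio of 7 pairs did not overlap between the groups, and all 7 hold Rgs9. The exception among its 8 pairs was that with Ppp1r1b, and the ratio of Rgs9 to 29.4% of all other tested genes did not overlap either. The 36 ratios share genes and libraries and are not independent.

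**Figure D4:**
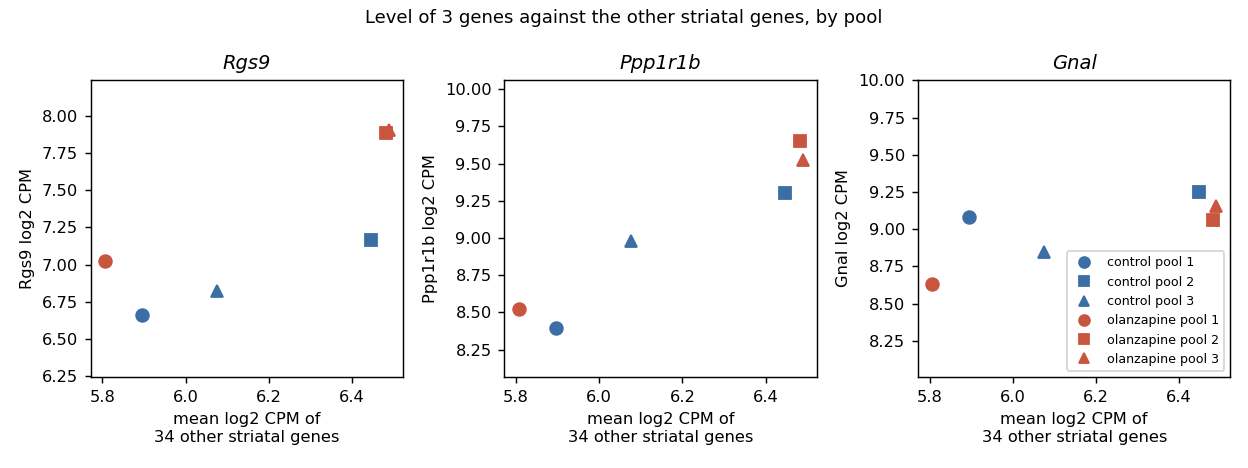
Log2 CPM of Rgs9, Ppp1r1b and Gnal in each pool against the mean log2 CPM of 34 other striatal genes, with blue for control pools, red for olanzapine pools and a vertical span of 2 log2 units in each panel. The olanzapine pools of Rgs9 lie above control pools at a like level of the other striatal genes. Those of Ppp1r1b also lie above such control pools but by less, and its groups overlap relative to the 34 genes. Gnal varies little.

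Other lists differed between the groups in the same direction as Rgs9. Of the 9 hepatocyte genes given above, 9 were higher in the olanzapine group with an adjusted p under 0.05 in edgeR's quasi-likelihood test. Long noncoding RNAs kept in the nucleus, a list of 7 genes with Malat1, had mean log2 CPM values of 7.20 to 7.43 in the control pools and 8.17 to 8.40 in the olanzapine pools, and 5 of the 7 passed that threshold (background 2.32% of all tested genes in either direction, for both lists). None of the genes of either list was at 0 in any pool. Their part in the difference of Rgs9 was not tested.

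Rasd2 encodes Rhes, a small GTP-binding protein of the striatum that dampens cyclic AMP signalling. It lies on the plus strand of chromosome 8 (chr8:75213944-75224113, GRCm38) and spans 10.2 kb. Normalized counts were 7226, 9424 and 7397 in the control pools, against 5883, 11617 and 11339 in the olanzapine pools. Olanzapine pools 2 and 3 were above every control pool and olanzapine pool 1 was below every control pool. The olanzapine group spread 1.97-fold from its lowest to its highest pool, and the control group 1.30-fold. The log2 difference was 0.26 (SE 0.24, 95% interval -0.30 to 0.82, edgeR adjusted p = 0.623), so the wider olanzapine group covered both ends of the control range. The difference was 0.10 without olanzapine pool 2 and 0.52 without olanzapine pool 1. Relative to the 34 other striatal genes Rasd2 was among the steadiest of the 9, with an SD of 0.13 log2 units over the 6 pools against 0.39 for its level.

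Ppp1r1b encodes DARPP-32, the protein through which dopamine and protein kinase A inhibit protein phosphatase activity. It lies on the plus strand of chromosome 11 (chr11:98348404-98357796, GRCm38), spans 9.4 kb and overlaps a noncoding transcript on the opposite strand that had 421 counts in all 6 pools. Control pools 1 to 3 held 13159.9, 24668 and 19759 normalized counts, and olanzapine pools 1 to 3 held 14391, 31377 and 28734. Control pool 1 and olanzapine pool 1 were low together, and control pool 2 lay nearer to the high olanzapine pools than to control pool 1. Means were 19195 ± 5774 and 24834 ± 9139.8 (SD, n = 3), a ratio of 1.29. The log2 difference was 0.37 (SE 0.31, 95% interval -0.34 to 1.09, edgeR adjusted p = 0.579), and it was 0.15 (SE 0.10, adjusted p = 0.484) with the other striatal genes as a covariate. In the group-only fits that left out 1 pool it ran from 0.16 without control pool 1 to 0.65 without olanzapine pool 1.

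Bcl11b encodes CTIP2, a zinc finger factor needed for projection neurons of the striatum and of deep cortical layers. It spans 93.2 kb of chromosome 12 on the minus strand (chr12:107910403-108003602, GRCm38). Normalized counts were 3282, 5409 and 3939.7 in the control pools, against 3574, 4486 and 4347 in the olanzapine pools. Here the highest and the lowest pool were both controls. The log2 difference was -0.026 (SE 0.18, 95% interval -0.43 to 0.38, edgeR adjusted p = 0.957), and without control pool 2 it was 0.20.

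Foxp1 encodes a forkhead repressor that is expressed in direct and indirect projection neurons and in some cortical layers. With 597.4 kb on the minus strand of chromosome 6 (chr6:98925338-99522721, GRCm38), it is the longest of the 9 genes. Control pools 1 to 3 held 2771, 4333 and 3523 normalized counts, and olanzapine pools 1 to 3 held 3163, 3944 and 4413. The groups overlapped, with the lowest value in control pool 1 and the highest in olanzapine pool 3. The log2 difference was 0.12 (SE 0.17, 95% interval -0.29 to 0.52, edgeR adjusted p = 0.783), and without control pool 1 it was -0.034. Bcl11b and Foxp1 were among the most similar pairs of the 9, their log2 ratio having an SD of 0.11 over the 6 pools.

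Rarb encodes retinoic acid receptor beta, a nuclear receptor enriched in the striatum that is itself a classical target of retinoic acid. It spans 388.3 kb of chromosome 14 on the minus strand (chr14:16430839-16819156, GRCm38) and overlaps Top2b on the opposite strand, which had 22453 counts over the 6 pools. Normalized counts were 1036, 1910.3 and 1219 in the control pools, against 1149, 2078 and 1867 in the olanzapine pools. Control pool 2 lay between olanzapine pools 2 and 3, and the 3 other pools were low. The log2 difference was 0.29 (SE 0.27, 95% interval -0.33 to 0.91, edgeR adjusted p = 0.625), with 0.12 without control pool 1 and 0.60 without control pool 2. Adora2a and Rarb kept the steadiest ratio of the 36 pairs, with an SD of 0.11 log2 units.

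The promoter window of Rarb is shown because it holds the retinoic acid response element of this gene, the letters GGTTCA and AGTTCA with 5 bases of any kind between them. The match is in capitals and lies 53 to 37 bases before the start. On either strand, 2 of the 32851 windows (0.00609%) held these letters, and 1 of the 8 windows of the striatal genes did. The letters searched were those of the element of Rarb itself, so its match was set in advance. The share is not that of retinoic acid response elements in general. The match is not evidence that a factor binds it. The start meant here is that of a transcript that begins inside the gene, not at the 5′ end of the span given above. The window is chr14:16575427-16575726 on GRCm38.p6, minus strand, written 5′ to 3′ along the transcript.
Rarb: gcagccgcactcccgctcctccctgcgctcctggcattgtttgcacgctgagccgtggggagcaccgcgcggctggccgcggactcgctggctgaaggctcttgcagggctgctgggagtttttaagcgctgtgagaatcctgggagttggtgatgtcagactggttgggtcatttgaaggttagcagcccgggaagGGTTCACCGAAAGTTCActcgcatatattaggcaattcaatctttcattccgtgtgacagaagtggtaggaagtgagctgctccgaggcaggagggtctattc

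The wider set of 34 striatal genes was spread around a small positive difference, with a median of 0.12 on the log2 scale. Of the 7 direct-pathway genes, 4 had a positive and 3 a negative difference, with a median of 0.035 on the log2 scale. Of the 5 indirect-pathway genes, 3 were positive and 2 negative, with a median of 0.13, and of the 22 genes used for both pathways, 14 were positive and 8 negative, with a median of 0.22. Among all 34, 0 passed an adjusted p under 0.05 with edgeR's quasi-likelihood test (background 2.32%), 5 passed an unadjusted p under 0.05 (background 17.6%), and 3 had groups that did not overlap (background 24.3%). DESeq2 gave 3 of the 34 an adjusted p under 0.05, namely Kcnh4, Hpca and Chrm4 (background 5.92%).

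The dopamine receptor genes lay with the 9. Drd1, the D1 receptor, had normalized counts of 1913, 3344 and 2281 in the control pools, against 1729, 3139.9 and 3306 in the olanzapine pools, and its log2 difference was 0.12 (edgeR adjusted p = 0.865). Drd2, the D2 receptor, had 2808, 4253 and 2955 against 2230.0, 4332 and 4398, with a log2 difference of 0.13 (edgeR adjusted p = 0.844). Both receptors were thus low in the same 3 pools. Penk, the enkephalin precursor of the indirect pathway, had a log2 difference of 0.30, and Tac1, the substance P precursor of the direct pathway, of 0.34. Pdyn, the dynorphin precursor, had -0.045, and none of these 3 passed (edgeR adjusted p = 0.618, 0.525 and 0.937).

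The genes among the 34 with an unadjusted p under 0.05, and Ido1, the gene with the difference nearest to that of Rgs9, were picked after their values were seen. Ido1, a tryptophan-degrading enzyme gene, had a log2 difference of 0.73 (SE 0.46, edgeR adjusted p = 0.462), and its groups overlapped. Kcnh4, a potassium channel gene, had a log2 difference of 0.81 (SE 0.23, edgeR adjusted p = 0.125), and its groups did not overlap, with log2 CPM values of 2.55 to 3.47 in the control pools and of 3.73 and above in the olanzapine pools. Chrm4, the M4 muscarinic receptor of the direct pathway, had 0.46 (SE 0.13, edgeR adjusted p = 0.120). Hpca, which encodes the calcium sensor hippocalcin, had 0.42 (SE 0.12, edgeR adjusted p = 0.131). Kcnh4, Chrm4 and Hpca are the 3 genes whose groups did not overlap. Rasgrp2, a guanine exchange factor gene, had 0.54 (SE 0.20, adjusted p = 0.206) and passed without olanzapine pool 1, at 0.75 with an adjusted p of 0.00594. At the other end, Ebf1, a factor of direct-pathway neurons, had -0.62 (SE 0.25, edgeR adjusted p = 0.246).

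Across all genes, the 5 whose pools most resembled the 9 were themselves largely striatal. For each pool the log2 CPM of the 9 genes was standardized per gene and averaged, and Pearson's r with that mean over the 6 pools was taken for 14271 other genes with a mean count of at least 50. Among the 5 highest r values were those of Scn4b (0.996), Pde10a (0.996), Gng7 (0.989) and Pde1b (0.985). Of the 5 genes, 4 are among the 34 striatal genes, and Gng7, the gamma subunit that partners the olfactory-type G protein, is not. Pde10a, the phosphodiesterase that breaks down cyclic nucleotides in striatal neurons, had 9833, 16215 and 11683 normalized counts in the control pools, against 9601, 17176 and 18066 in the olanzapine pools. With 6 points that share their libraries, these correlations only describe the likeness. Lowest among the 34, and picked after their values were seen, were Cnr1, the cannabinoid receptor, with r = -0.60, Isl1 with 0.22, Sp9 with 0.36 and Ebf1 with 0.39.

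The partners and relatives of the 9 genes gave 1 call among 26. This list took the subunits, kinases, phosphatases and receptors that work with the 9 gene products, and 5 of its genes are in the wider striatal list too. Of the 26, 16 had a positive and 10 a negative difference, with a median of 0.14 on the log2 scale, and 1 (background 2.32%) had an adjusted p under 0.05. It was Cdk5, a kinase that phosphorylates DARPP-32. Cdk5 had 2854, 2856 and 3109 normalized counts in the control pools, against 3886, 3755 and 3564 in the olanzapine pools, each olanzapine pool being above each control pool. Its log2 difference was 0.35 (SE 0.070), with an adjusted p of 0.0498 by edgeR's quasi-likelihood test, which it kept under 0.05 in 4 of 23 alternatives (adjusted p 0.00584 to 0.631) and in none of the fits that left out a pool. Gnas, the G protein subunit that most other cells use in place of that of Gnal, had a log2 difference of -0.023 (edgeR adjusted p = 0.923). Gnb5, the beta subunit that binds and stabilizes the RGS9 protein, was picked after its value was seen and had 0.26 (SE 0.097, edgeR adjusted p = 0.217).

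**Figure D5:**
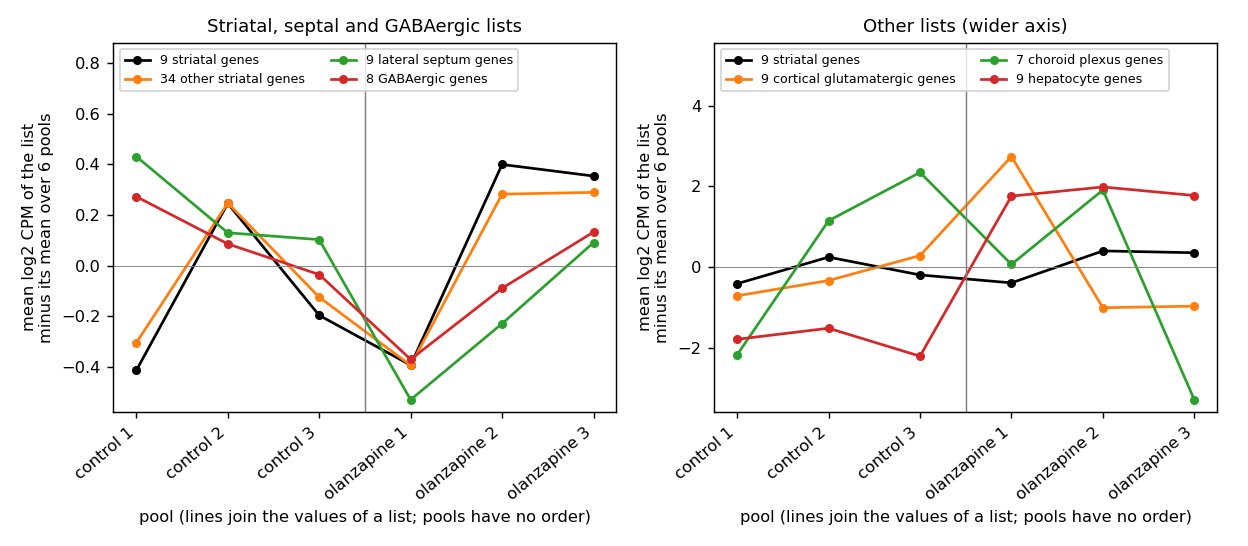
Mean log2 CPM of each gene list in each pool, after subtracting the list's mean over the 6 pools, for the striatal, septal and GABAergic lists (left) and for the cortical, choroid plexus and hepatocyte lists on a wider axis (right); the lines join the values of a list. The 9 and the 34 striatal genes run together, the septal genes peak in control pool 1, where the striatal genes are low, and the cortical genes peak in olanzapine pool 1.

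Markers of other cells varied between the pools in patterns of their own. The mean log2 CPM of the 9 striatal genes was 6.50, 7.16 and 6.72 in control pools 1 to 3, against 6.52, 7.31 and 7.27 in olanzapine pools 1 to 3. For the 9 lateral septum genes it was 5.63, 5.33 and 5.31 in the control pools, against 4.67, 4.97 and 5.29 in the olanzapine pools. Control pool 1 was therefore low in striatal and highest in septal genes, while olanzapine pool 1 was low in both. Of the septal genes, 8 of 9 had a negative difference (median -0.48 on the log2 scale), and 4 of these had an unadjusted p under 0.05 in edgeR, where 17.6% of all genes did.

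The 9 cortical glutamatergic genes were each highest in olanzapine pool 1, where they summed to 1749 CPM, against 371 to 497 CPM in the other 5 pools. Their mean log2 CPM was 2.70 to 3.70 in the control pools, 2.40 and 2.44 in olanzapine pools 2 and 3, and 6.15 in olanzapine pool 1. The 8 GABAergic genes averaged 6.61 log2 CPM in that pool, below the 6.89 to 7.25 of the others. The 10 genes used for neurons in general averaged 8.85 log2 CPM there and 8.52 to 8.69 elsewhere. The 7 choroid plexus genes ran from 45.8 to 710.0 summed CPM, lowest in olanzapine pool 3 and highest in control pool 3, and so did not follow the striatal genes. The 9 striatal genes themselves summed to 1308 to 2271 CPM. None of the genes in these lists was at 0 in any pool. The part of tissue make-up in the level of the striatal genes was not tested, and without olanzapine pool 1 the count of the 9 genes with an adjusted p under 0.05 was 1, namely Rgs9 (background 2.87%).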

How the data were processed

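RNA was extracted from LS tissue pooled from 3 female mice per library, and 6 paired-end libraries were sequenced, 3 per group. Per the labels and the study's methods, the authors trimmed reads with fastp, aligned them to mm10 with HISAT2, counted them per gene with HTSeq and deposited raw counts. The authors also deposited FPKM, computed from the same alignments. Groups came from the treatment label. The strand setting, the annotation and the handling of multi-mapping reads are not given in the sources used here, so overlapping genes are uncertain. Columns of samples left unused numbered 0, and 0 rows had no gene name.

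The counts were normalized with TMM and edgeR 4.0.16 in R 4.3.3 ran its quasi-likelihood F test on genes that passed filterByExpr (minimum count 10, minimum total 15). The group was the only term, all 6 pools entered, and p-values were adjusted by Benjamini-Hochberg over all 17255 genes. The SE was the size of the log2 fold change divided by the square root of F. Log2 CPM used a prior count of 2. Normalized counts are counts scaled to a common TMM library size. The script was tested on simulated data first. The 9 genes and all gene lists were chosen with earlier results of these data known. Genes named from other lists were those with an adjusted p under 0.05 (at most 5 per list), the 3 with the highest mean FPKM, Drd1, Drd2 and Pde10a, and the 5 genes most alike to the 9 over the pools, from which a selection is printed (1 gene under this rule is not reported here); the others are marked as picked after their values were seen.

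Alternatives were DESeq2 1.42.0, RLE and upper-quartile normalization, scaling to neuronal genes, no count filter, only genes with a mean count of 50 or more, a block for the replicate number, limma 3.58.1 on log2(FPKM + 1) or log2(FPKM + 0.1) at a mean FPKM of at least 0.1 or on log2(FPKM + 1) with no filter, and leaving out each pool. The covariate fits were added after seeing the data. Gene positions came from GENCODE and promoter sequences from RefSeq, both on the GRCm38 assembly, of which mm10 is another name.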

Additional observations from a re-analysis of the deposited data

How the results depend on the processing

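With 3 pools per group, counts of called genes moved with the method. DESeq2 called 304 genes with the 2-fold limit and 1099 without it, 1 of the 9 striatal genes (Rgs9) and 3 of the 34 others. Scaling to neuronal genes left 175 genes without the fold limit and moved the median of all genes to -0.11, with the 9 striatal genes at 0.21. Limma on log2(FPKM + 1) called 65 genes with the fold limit, 58 without the filter on low values, and on log2(FPKM + 0.1) it called 267 without the fold limit. The covariate fit called 1 of the 9. Over the fits that left out 1 pool, with or without the covariate, the genes with the fold limit ran from 5 to 214, those without it from 5 to 573, the striatal genes from 0 to 1 of the 9 and from 0 to 2 of the 34 others. The lowest counts came from the covariate fit without olanzapine pool 1.

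The replicate number as a block gave 86 genes with the fold limit, 140 without it and 0 of the 9. The deviations of pools of the same number had r of 0.015, 0.11 and -0.40 over 14279 genes. Pools of different numbers had r from -0.53 (control pool 1, olanzapine pool 2) to 0.52 (control pool 3, olanzapine pool 2). Deviations within a group are tied to each other, so these r values cannot decide whether the pools share more than a number. Among the 9 genes, control pool 1 was lowest in its group for 8 and olanzapine pool 1 for 9. Control pool 2 was highest in its group for 9 and olanzapine pool 2 for 6.

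Of 207 values of the 9 genes under alternatives, 14 changed sign, none of them called. Bcl11b became 0.017 with limma on log2(FPKM + 1), filtered or not, 0.021 with log2(FPKM + 0.1), 0.20 without control pool 2, 0.068 without olanzapine pool 1 and 0.057 in the covariate fit without control pool 2. Foxp1 became -0.034 without control pool 1, and in the covariate fit -0.038 without that pool and -0.13 without olanzapine pool 1. Gnal became 0.0038 without control pool 2 and 0.040 without olanzapine pool 1. In covariate fits, Rasd2 became -0.044 without control pool 2, Rarb -0.0050 without olanzapine pool 1 and Adora2a -0.015 without olanzapine pool 2. Over the fits that left out a pool, Bcl11b ran from -0.35 to 0.20, Foxp1 from -0.13 to 0.29, Gnal from -0.26 to 0.040, Rasd2 from -0.044 to 0.52, Rarb from -0.0050 to 0.60 and Adora2a from -0.015 to 0.54. Rgs9 stayed positive in all 23 alternatives (0.52 to 1.00) and was called in 2 of the 16 alternatives without the covariate (DESeq2 and without olanzapine pool 1) and in 5 of the 7 covariate fits added after seeing the data. The causes were not tested. At these depths no pool had fewer than 662 normalized counts of any of the 9 genes.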
